A study of Mus musculus with 40 samples.

Results

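In livers of ad libitum fed male Bcl6 fl/fl mice on a C57BL/6 background, the corepressor NCoR and the histone deacetylase HDAC3 occupied 5212 sites at which no SMRT peak was called. These sites were selected on the measured peak positions themselves. A member was an NCoR peak with an HDAC3 peak center within 200 bp of its own center and no SMRT peak center within 200 bp. The members made up 14.8% of the 35138 peaks of the NCoR cistrome (exact 95% interval 14.5 to 15.2). The other NCoR peaks comprised 8739 sites shared by all 3 cofactors, 19725 with NCoR only, and 1462 with SMRT but not HDAC3. The floxed Bcl6 allele was undeleted in these controls, which carried no Albumin-cre, and the sources used here do not state the animals' age. Each of the 3 peak lists (NCoR, HDAC3 and SMRT) was called from 3 libraries, 1 per animal. The remaining 31 of the 40 samples of the series, which include knockout livers, were not analysed here.

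NCoR, encoded by Ncor1, and SMRT are paralogous scaffolds that do not bind DNA themselves. They are brought to chromatin by unliganded or repressive nuclear receptors such as REV-ERB and by repressors such as BCL6, and each binds and activates HDAC3 through a deacetylase activation domain. HDAC3 removes acetyl groups from histones, and in liver the complex is known for its part in the daily rhythm of lipid metabolism. The members are thus the places where a peak was called for the deacetylase and for only 1 of the 2 scaffolds.

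The lists give positions without height, score or replicate values. A missing SMRT peak means that no peak passed the authors' thresholds, and SMRT that is absent cannot be told apart from SMRT too weak to be called. The values that defined the members are therefore given as a description. The median distance from the NCoR to the HDAC3 center was 26 bp in members (quartiles 12 and 48), compared with 21 bp at shared sites, and 95.9% of members had the centers within 100 bp. Each member had its own HDAC3 peak, so that 5212 of the 14462 HDAC3 peaks (36.0%) served as partners. Few sites lay near the limits of the rule. The nearest SMRT center was over 200 and up to 250 bp away at 20 members, just inside the rule, and over 150 bp away at 20 shared sites, just outside it. HDAC3 lay over 150 bp away at 39 members, and over 200 and up to 250 bp away at 16 NCoR-only sites.

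To show what the sites look like, DNA windows of 200 bp at peak centers are printed below for 6 members, taken from the plus strand of GRCm38 (mm10). Capitals mark the match to the motif that each window illustrates. A rule gave 4 of them as the members at listed genes whose match lay nearest the center. The Pnpla2 window lies in an intron of this triglyceride lipase gene (chr7:141456132-141456331) and holds an ETS/ELK match. The window in an intron of the nuclear receptor gene Rora (chr9:68888144-68888343) holds an HNF6/CUX2 match, and that in an intron of the growth factor gene Igf1 (chr10:87885446-87885645) holds a FOX match. A window nearest to the TSS of Irs2, an adaptor of the insulin receptor, lies in an intron of another gene (chr8:10873035-10873234) and holds a RORE, the element of REV-ERB and ROR receptors. The other 2 were chosen after their values were seen. No listed gene had a CRE-bearing member clear of a UTR, so the most central match elsewhere is shown, at an intronic site nearest to Cemip (chr7:84112761-84112960). A promoter window is shown for Acacb, an acetyl-CoA carboxylase gene (chr5:114146083-114146282, with a DR1 element).
Pnpla2: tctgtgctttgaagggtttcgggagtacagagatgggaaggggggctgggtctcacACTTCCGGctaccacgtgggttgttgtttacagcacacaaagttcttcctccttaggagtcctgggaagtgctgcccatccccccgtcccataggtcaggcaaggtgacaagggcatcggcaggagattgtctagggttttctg
Rora: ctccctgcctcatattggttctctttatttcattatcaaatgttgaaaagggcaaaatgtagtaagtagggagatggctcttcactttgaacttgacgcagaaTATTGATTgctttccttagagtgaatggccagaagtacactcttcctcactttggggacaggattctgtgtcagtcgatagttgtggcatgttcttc
Igf1: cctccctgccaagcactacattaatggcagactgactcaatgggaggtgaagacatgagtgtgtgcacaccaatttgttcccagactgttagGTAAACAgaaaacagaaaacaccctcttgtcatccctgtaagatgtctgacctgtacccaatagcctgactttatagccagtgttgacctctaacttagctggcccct
Irs2: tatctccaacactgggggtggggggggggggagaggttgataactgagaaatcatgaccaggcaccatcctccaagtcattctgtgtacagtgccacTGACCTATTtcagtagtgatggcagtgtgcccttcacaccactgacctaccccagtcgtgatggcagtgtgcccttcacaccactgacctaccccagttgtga
Cemip: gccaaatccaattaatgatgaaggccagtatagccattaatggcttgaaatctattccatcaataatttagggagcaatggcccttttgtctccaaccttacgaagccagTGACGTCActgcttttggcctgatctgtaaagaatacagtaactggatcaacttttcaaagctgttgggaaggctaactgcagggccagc
Acacb: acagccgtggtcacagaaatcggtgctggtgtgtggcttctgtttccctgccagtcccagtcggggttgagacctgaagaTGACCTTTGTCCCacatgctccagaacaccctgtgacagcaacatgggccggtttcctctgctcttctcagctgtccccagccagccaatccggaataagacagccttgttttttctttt

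The members were mostly distal, with a promoter fraction rich in CpG. Promoters held 687 members, or 13.2% (12.3 to 14.1), where a promoter reached from 1000 bp before to 100 bp after any annotated transcription start site (TSS). Introns outside promoters held 2706 members (51.9%, 50.6 to 53.3) and intergenic DNA held 1530 (29.4%, 28.1 to 30.6). The remaining 289 lay in exons, with 81 in coding sequence, 119 in UTRs and 89 in non-coding exons. The median distance to the nearest TSS was 8960 bp (quartiles 2165 and 22573), compared with 10516 bp at shared sites and 8547 bp at NCoR-only sites. More than 10 kb separated 2460 members (47.2%) from any TSS, and 473 (9.08%) were more than 50 kb away.

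**Figure D1:**
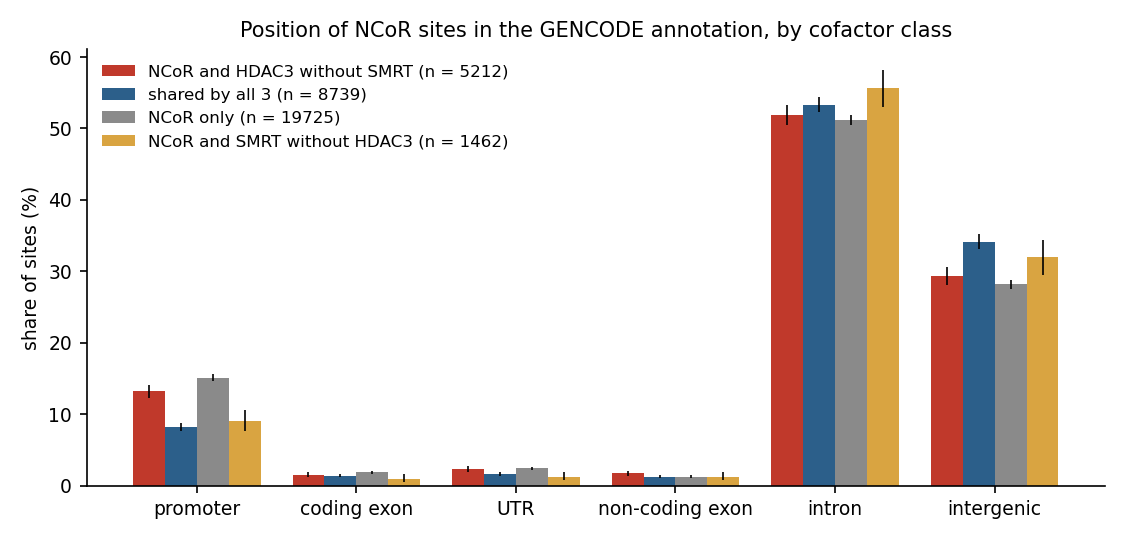
Share of NCoR sites in each part of the GENCODE annotation (y axis, percent of sites of a class) for the 4 cofactor classes, with exact 95% intervals for counting error as bars. Members lay in promoters in 13.2% of cases, between shared sites (8.19%) and NCoR-only sites (15.1%), and introns held 51.9% of them.

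Promoter members surrounded the start site. Their median position relative to the TSS was -97 bp, and 503 of 687 (73.2%) lay upstream. The promoter window reached 1000 bp before the TSS and only 100 bp after it, so an upstream majority was built in. At shared sites the promoter peaks lay upstream more often, in 599 of 716 cases (83.7%), with a median position of -124 bp. NCoR-only promoter sites lay upstream in 72.2%. These positions were not tested between classes. In the 100 bp just after the TSS, members held 141 sites (2.71%), almost as many as the 167 (3.20%) in the 100 bp before it. From 100 to 1000 bp they held 305 sites after the TSS, mostly beyond the promoter window, and 336 before it. Protein-coding genes owned the nearest TSS at 524 of the promoter members (76.3%).

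**Figure D2:**
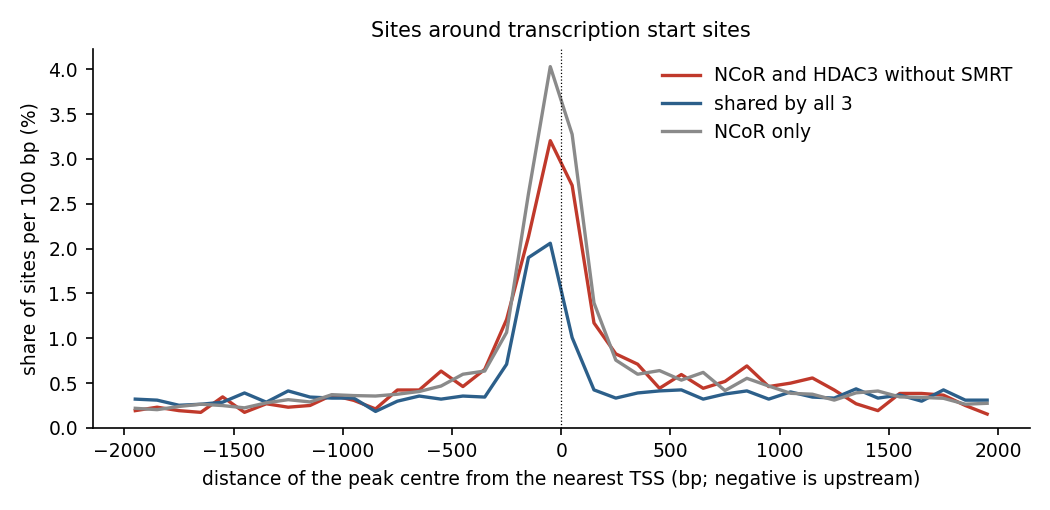
Share of sites per 100 bp (y axis, percent of all sites of a class) against the signed distance of the peak center from the nearest TSS (x axis, bp), for members, shared sites and NCoR-only sites. Members peaked at 3.20% in the 100 bp before the TSS and still held 2.71% in the 100 bp after it. NCoR-only sites were higher in these 2 bins (4.03% and 3.28%) and shared sites lower (2.06% and 1.01%). In the bin from 300 to 200 bp before the TSS members held 1.21%, above shared sites (0.709%) and NCoR-only sites (1.06%).

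CpG content separated the members from shared sites more strongly than promoter location did. A window was called CpG-rich with a GC content of at least 50% and an observed to expected CpG ratio of at least 0.6. This applied to 474 members (9.09%, 8.33 to 9.91), compared with 289 shared sites (3.31%, 2.94 to 3.70). By Fisher's exact test (two-sided, adjusted over 8 location tests) the odds ratio for members was 2.93 with p = 4.37e-45, beside 1.70 for the promoter share. Among promoter sites alone, 327 of 687 members (47.6%) were CpG-rich and 169 of 716 shared sites (23.6%). Away from promoters the shares were 3.25% and 1.50%, and the difference kept its direction (odds ratio 2.21, adjusted p = 3.49e-10). NCoR-only sites were CpG-rich more often than members, at 11.8% (odds ratio 0.751 for members, adjusted p = 4.14e-08). Outside promoters this second difference was not past the threshold (3.25% against 3.87%, odds ratio 0.833, adjusted p = 0.0832). The median GC content was 49% in members, 47.5% at shared sites and 48.5% at NCoR-only sites. Peaks are not replicates and neighbouring peaks share their surroundings, so intervals and p-values reflect counting alone and say nothing of how animals vary.

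The sequence motifs of the members were then compared with those of the other classes. Fixed letter strings for 21 motifs were searched on both strands of the 200-bp windows, and windows 2 kb to either side gave the local background. At least 1 match to a motif other than CTCF was found in 2440 members (46.8%, 45.5 to 48.2), compared with 50.5% of shared and 44.8% of NCoR-only sites. By share of members the HNF4 half-site, FOX and C/EBP motifs led, followed by AP-1 (5.83%) and RORE (5.47%). The strings differ in length, so such shares do not rank enrichment. The ratio of the member share to the flanking share was 2.59 for FOX and 4.60 for RORE. The HNF4 half-site (CAAAGGCCA, CAAAGGTCA, CAAAGTCCA or CAAAGTTCA), bound by the hepatocyte nuclear receptor HNF4A, was present in 424 members (8.14%, 7.41 to 8.91) and in 1.28% of flanking windows. The FOX motif (TGTTTAC), bound by the FOXA pioneer factors and by FOXO proteins, was present in 390 (7.48%, 6.78 to 8.23) and in 2.89% of flanks. C/EBP motifs (TTACGCAA, TTATGCAA, TTGCGCAA or TTGTGCAA) were present in 313 (6.01%) and in 1.33% of flanks. Across all NCoR peaks these motifs were present in 7.85%, 7.74% and 5.51% of windows. The long DR1 element of PPAR-RXR and HNF4 was found in 100 members (1.92%) and in only 0.0863% of flanks. Of these 100 windows, 54 also held an HNF4 half-site, whose letters overlap those of DR1.

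Against shared sites, 6 of 21 motifs differed at an adjusted p below 0.05, with 3 more and 3 less frequent in members. The less frequent ones belonged to liver factors. HNF6/CUX2 motifs (TATCGATC, TATCGATT, TATTGATC or TATTGATT), bound by ONECUT and CUX2 proteins, were present in 4.59% of members (4.03 to 5.19) and 8.23% of shared sites (adjusted p = 7.80e-16 by Fisher's exact test, odds ratio 0.536). FOX motifs were present in 7.48% and 9.93% (odds ratio 0.733, adjusted p = 8.87e-06), and C/EBP motifs in 6.01% and 7.80% (odds ratio 0.755, adjusted p = 0.000311). Among non-promoter sites these 3 differences kept their direction and remained past the threshold, with odds ratios of 0.561, 0.741 and 0.791. In 100-bp windows the C/EBP difference did not pass the threshold (odds ratio 0.835, adjusted p = 0.104). At least 1 match to HNF4 half-site, FOX, HNF6/CUX2 or C/EBP was found in 24.2% of members (23.0 to 25.4) and in 31.6% of shared sites (30.6 to 32.6). The share was lower still at NCoR-only sites, at 20.8% (20.2 to 21.4). These sites held HNF6/CUX2 in 4.33% and FOX in 6.69%. Neither differed from members past the threshold (adjusted p = 0.557 and 0.0947 by Fisher's exact test).

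The motifs that were more frequent in members than in shared sites are those of factors common at CpG-rich promoters. ETS/ELK (CCGGAAGT) was present in 36 members (0.691%, 0.484 to 0.955) and in 0.240% of shared sites (odds ratio 2.89, adjusted p = 0.000380). SP/KLF (GGGGCGGGG) was present in 110 members (2.11%) and in 1.08% of shared sites (odds ratio 1.98, adjusted p = 1.21e-05). CRE (TGACGTCA), the element of CREB and ATF proteins, was present in 36 members (0.691%) and in 0.309% of shared sites (odds ratio 2.24, adjusted p = 0.00550). Each was concentrated at promoter members, at 3.93% for ETS/ELK, 9.90% for SP/KLF and 2.91% for CRE, compared with 0.199%, 0.928% and 0.354% of the other members. None of the 3 passed the threshold among non-promoter sites (odds ratios 1.45, 1.36 and 1.29, adjusted p = 0.655, 0.384 and 0.655). Among sites that were not CpG-rich, the ETS/ELK difference changed direction (odds ratio 0.629, adjusted p = 0.545). NCoR-only sites held ETS/ELK in 1.03% and CRE in 0.659%. Neither differed from members past the threshold (adjusted p = 0.0661 and 0.813 by Fisher's exact test).

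**Figure D3:**
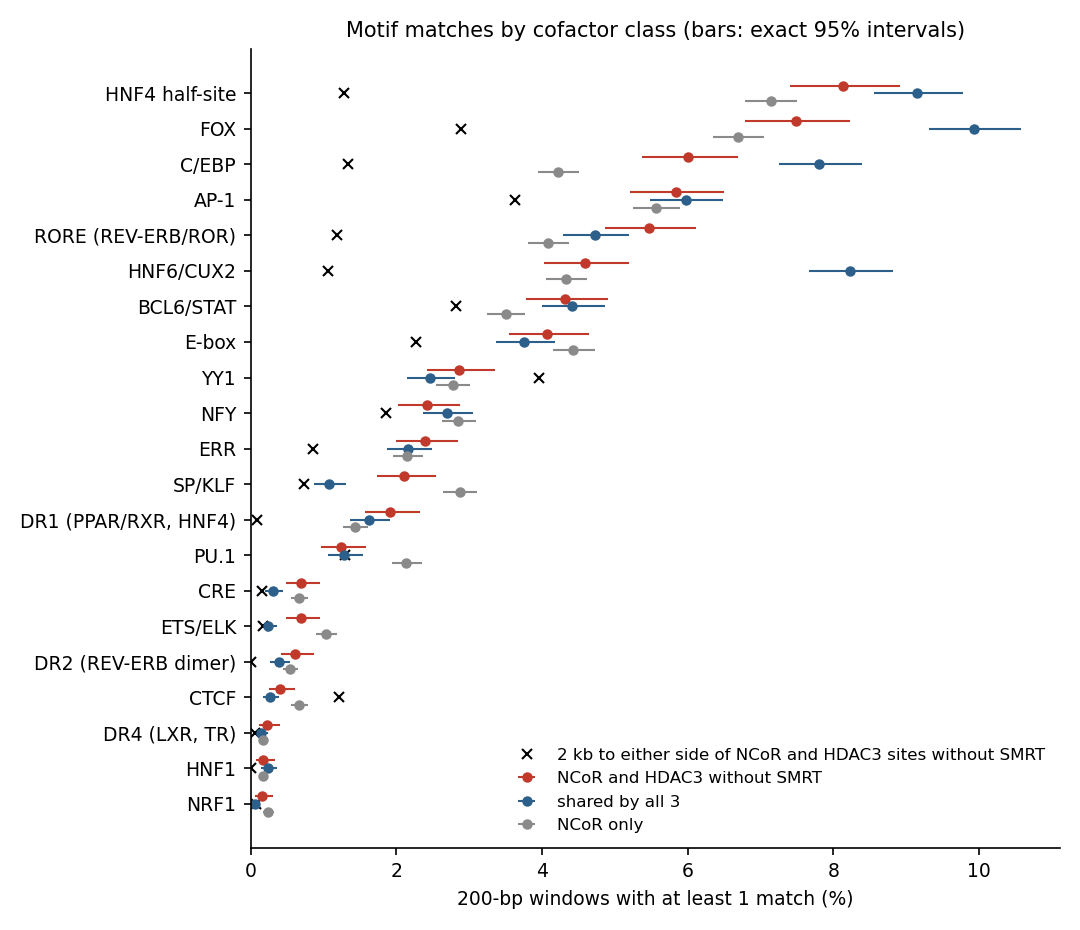
Share of 200-bp windows with at least 1 motif match (x axis, percent) for members, shared sites and NCoR-only sites, with exact 95% intervals, and for windows 2 kb from members (crosses). HNF6/CUX2 was present in 4.59% of members and 8.23% of shared sites, and RORE in 5.47% of members and 4.08% of NCoR-only sites.

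Against NCoR-only sites, 7 of 21 motifs differed, and 5 of them were more frequent in members. C/EBP had the smallest p, at 6.01% of members and 4.22% of NCoR-only sites (adjusted p = 2.46e-06 by Fisher's exact test, odds ratio 1.45). The RORE (ANTAGGTCA or ANTGGGTCA), the element of the REV-ERB repressors that recruit NCoR and HDAC3, was present in 285 members (5.47%, 4.87 to 6.12) and in 4.08% of NCoR-only sites (adjusted p = 0.000160, odds ratio 1.36). Its share was 4.73% at shared sites, where the difference from members did not pass the threshold (adjusted p = 0.142), 1.19% in the flanks and 4.36% in all NCoR peaks. The RORE lay within 25 bp of the member's center in 43.9% of the windows that held it. The BCL6/STAT motif (TTCCNAGAA, TTCCNGGAA, TTCTNAGAA or TTCTNGGAA) was present in 225 members (4.32%, 3.78 to 4.90) and in 3.50% of NCoR-only sites (adjusted p = 0.0263, odds ratio 1.24), with 2.82% of flanks. In 100-bp windows this last difference no longer passed the threshold (odds ratio 1.20, adjusted p = 0.239). Shared sites held BCL6/STAT in 4.42%, and members did not differ from them past the threshold (odds ratio 0.976, adjusted p = 0.84).

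DR1 (1.92% against 1.43%, odds ratio 1.34) and the HNF4 half-site (8.14% against 7.14%, odds ratio 1.15) were also more frequent in members than in NCoR-only sites, both with an adjusted p of 0.0468. Neither passed the threshold among non-promoter sites (adjusted p = 0.175 and 0.172). Shared sites held DR1 in 1.62% and the HNF4 half-site in 9.15%, neither past the threshold against members (adjusted p = 0.316 and 0.124 by Fisher's exact test). PU.1 (GAGGAAGT), an ETS family motif of macrophages and B cells, was less frequent, at 65 members (1.25%) against 2.13% of NCoR-only sites (adjusted p = 0.000160, odds ratio 0.579), and its share in the flanks was 1.30%. SP/KLF was less frequent at 2.11% against 2.87% (odds ratio 0.730, adjusted p = 0.0130), but not past the threshold among non-promoter sites (odds ratio 0.853, adjusted p = 0.794). The spelled-out motifs ERR (TCAAGGTCA or TGAAGGTCA), E-box (CACGTG), AP-1 (TGACTCA or TGAGTCA), NFY (CCAATCAG, CCAATCGG, CCAATGAG or CCAATGGG), YY1 (AANATGGC) and NRF1 (CGCATGCG) did not pass the threshold in either comparison. Nor did HNF1, DR4, CTCF or DR2, the tandem element of REV-ERB, which was found in 32 members (0.614%) and in no flanking window. Of these 32 windows, 15 also held a RORE, whose letters can overlap those of DR2. A match is a description of the letters in a window and does not show that the factor was bound.

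Members were less clustered than shared sites and more clustered than NCoR-only sites. Another NCoR peak lay more than 400 bp and up to 10 kb away from 3348 members (64.2%, 62.9 to 65.5). The share was 71.0% at shared sites (adjusted p = 1.75e-16 by Fisher's exact test, odds ratio 0.733 for members) and 57.3% at NCoR-only sites (odds ratio 1.34, adjusted p = 1.53e-19). The nearest such neighbour of a member was an NCoR-only site in 48.5% of cases, a shared site in 30.3%, another member in 16.2%, and a site with NCoR and SMRT in 4.93%. That 16.2% was near the background. Members were 14.8% of all NCoR peaks. Among sites with such a neighbour, it was a member for 16.0% of shared sites and 14.6% of NCoR-only sites. With members joined when at most 10 kb apart, 4354 (83.5%) were single, 780 formed pairs, 66 formed runs of 3 and 12 formed 3 runs of 4. Runs of the other classes were not counted. One run of 4 was nearest to Dhrs3, a retinaldehyde reductase gene, and spanned 24.1 kb (chr4:145017796-145041880) with 5 NCoR peaks and no SMRT peak.

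SMRT was often found in the wider neighbourhood of the members. Beyond the 200 bp set by the rule, a SMRT center lay within 10 kb of 1683 members (32.3%, 31.0 to 33.6), compared with 24.2% of NCoR-only sites (23.6 to 24.8), which the rule also requires to lack SMRT. The median distance to SMRT was 22801 bp for members and 33357 bp for NCoR-only sites. Only 232 members had SMRT within 1 kb, while 1006 (19.3%) were more than 100 kb from any SMRT peak. Because SMRT positions entered the rule, these distances carry no test. On chromosomes 1 to 19 members were 13.2% (chromosome 18) to 16.2% (chromosome 7) of the NCoR peaks. On the X chromosome they were 84 of 581 (14.5%, 11.7 to 17.6), where shared sites were 14.3%, compared with 24.9% genome-wide.

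To relate the members to genes, each was given to the protein-coding gene whose TSS lay nearest, with no limit on the distance. A member counted at a gene can therefore lie far from it or inside another gene. At least 1 member was found at 3661 of 21938 protein-coding genes (16.7%), with 1 member at 2642 of them, 2 members at 675 and 3 or more at 344. Of these genes, 1992 (54.4%) also held a site shared by all 3 cofactors. Such a site was found at 20.9% of all protein-coding genes and at 39.1% of genes with an NCoR-only site. No SMRT peak was assigned to 1489 of the genes (6.79% of all protein-coding genes), and these held 1744 members (33.5%). A member lay at the own promoter of 574 genes (2.62%).

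In a list of 6 genes of the corepressor complex, 3 had a member and the other 3 had none. Ncor1, which encodes NCoR, had 2 members in introns and 2 NCoR-only sites, and no SMRT peak. Its member at chr11:62352066-62352294 held a RORE and an HNF4 half-site, and that at chr11:62409626-62409854 held DR1 and an HNF4 half-site. Tbl1xr1, which encodes a WD40 subunit that exchanges corepressors, had 3 members among 38 NCoR peaks, of which 15 were shared sites.

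Several single genes held many members. Bcor, a BCL6 corepressor gene on the X chromosome, and Nr5a2, which encodes the bile acid and cholesterol regulator LRH-1, had 8 members each. These were among 35 and 25 NCoR peaks, respectively. Of the Nr5a2 members, 1 lay at its promoter (chr1:136960591-136960819, at -257 bp from a TSS) and 5 in introns. Elovl6, which elongates long-chain fatty acids in lipogenesis, had 7 members, 6 shared and 6 NCoR-only sites. Of the 7, 4 were intronic and 3 lay upstream, and 3 held an HNF6/CUX2 motif. Myc, Nav2, Nrip1, Pcsk5 and Sox9 had 7 members each, among 44, 20, 28, 21 and 36 NCoR peaks, respectively. Nrip1 encodes the nuclear receptor corepressor RIP140, and its 7 members included 1 in coding sequence with DR1, HNF4 half-site and AP-1 matches (chr16:76293937-76294165). The 7 members of Nav2 were all intronic. Akap1, which anchors protein kinase A at mitochondria, stood apart because members were 6 of its 8 NCoR peaks, 1 of them at its CpG-rich promoter (chr11:88863897-88864125).

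Some genes held several members and had no SMRT peak assigned to them by nearest TSS. A SMRT peak can still lie inside such a gene, as it did at Man2a1 and Rad54l2. Man2a1, a Golgi mannosidase gene, had 5 members and 7 NCoR-only sites. Ptprj, a receptor tyrosine phosphatase gene, had 5 members, all in introns, and the closest SMRT peak to any of them was 294577 bp away. Trio, a guanine nucleotide exchange factor gene, had 5, of which 4 lay in its own introns. At Rad54l2 all 4 NCoR peaks were members and intronic, and at Ccdc112 all 4 were members, at -23884 to -96239 bp from its TSS. Pptc7, a mitochondrial phosphatase gene, had 4 members. Btg2 and Crtc3 had 3 members each. The Btg2 promoter member (chr1:134079161-134079389) was CpG-rich and held a CRE and an NFY motif, and Crtc3 encodes a coactivator of CREB.

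**Figure D4:**
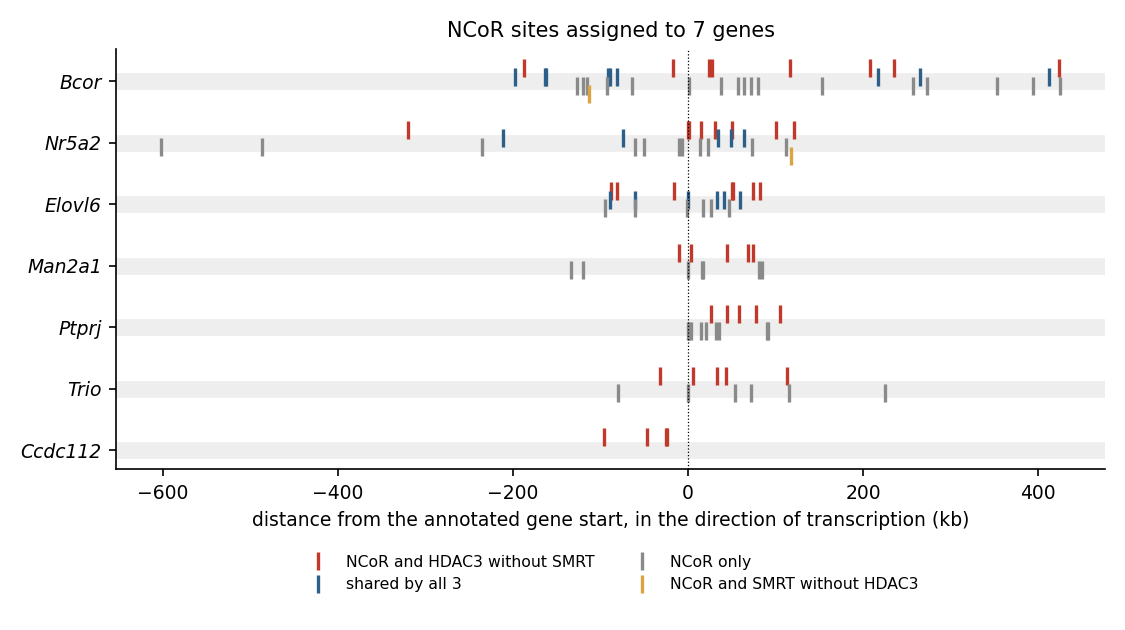
Positions of NCoR sites (ticks, colored by cofactor class) relative to the annotated gene start in the direction of transcription (x axis, kb). Shown are 3 of the genes with the most members and the 4 with the most members among genes without an assigned SMRT peak. Members are interleaved with shared sites at Bcor, Nr5a2 and Elovl6, whereas at Man2a1, Ptprj and Trio they are accompanied by NCoR-only sites and Ccdc112 has 4 members alone.

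Members were then counted in 22 lists of genes chosen for liver, and set beside the 16.7% of all protein-coding genes with a member. Because NCoR peaks were found at 49.1% of all protein-coding genes but at most genes of the metabolic and regulatory lists, the share of each list's NCoR peaks that were members is also given, beside the 14.8% of all NCoR peaks. In the metabolic and regulatory lists described next it ran from 10.8% to 19.4%. The largest share of genes was in insulin signalling, with 13 of 17 genes (76.5%). These genes held 196 NCoR peaks, of which 30 (15.3%) were members. A shared site was found at 10 of the 17. Trib1, a pseudokinase gene of hepatic lipid control, had 5 members among 24 NCoR peaks. Pik3r1, the regulatory subunit of PI3-kinase, had 5 members among 46. Foxo1, the transcription factor restrained by insulin, had 4 members among 23 NCoR peaks. Insr and Irs2 had 3 members each, among 16 and 31, and Akt2 had 2 among 3 with no SMRT peak assigned. All of the Foxo1 members lay 136326 to 274862 bp from its TSS. Promoter members were found at Akt2, Irs1 and Pik3r1, at -840, -188 and -561 bp from a TSS. A SMRT center lay 355 bp from the Pik3r1 promoter member.

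In the clock list 12 of 19 genes (63.2%) had a member, and members were 25 of 129 NCoR peaks (19.4%). Shared sites were found at 13 of the 19 genes. Bhlhe40, which encodes the repressor DEC1, and Rora, which encodes an activating receptor at ROREs, had 5 members each, and Hlf and Npas2 had 3 each. Promoter members were found at Arntl and Rora. The Arntl member, 25 bp downstream of the TSS of this core activator gene (chr7:113207468-113207696), was CpG-rich and held a RORE and a FOX motif. The windows at both promoters overlap UTRs and are not printed.

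Genes of hepatocyte identity and nuclear receptors often had members. In the list of hepatocyte transcription factors 14 of 20 genes (70.0%) had a member, with 31 of 215 NCoR peaks (14.4%). Besides Nr5a2, Cebpb and Foxa2 had 3 members each and Gata6 had 2. Hnf4a, the gene of HNF4A, had 2 in introns, of which chr2:163559202-163559430 held an HNF4 half-site. Foxa3 carried a member at its promoter. Of the nuclear receptor genes, 22 of 41 (53.7%) had a member, with 50 of 313 NCoR peaks (16.0%). The estrogen receptor gene Esr1 and the orphan receptor gene Nr2c1 had 3 members each. Nr4a1, an immediate early orphan receptor gene, had 2 members and no other NCoR peak, 1 of them at its CpG-rich promoter (chr15:101253936-101254164) with an SP/KLF motif.

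Metabolic lists had members at 35.0 to 58.3% of their genes. De novo lipogenesis had 8 of 16 genes with a member, compared with 13 of 16 with a shared site, and members were 17 of 109 NCoR peaks (15.6%). Its promoter member lay at Acacb, at -353 bp from a TSS (chr5:114146068-114146296), and held the DR1 printed above. Members were 3 of the 5 NCoR peaks at Acacb, which had no shared site, and Scd1, the stearoyl-CoA desaturase gene, had 2. In fatty acid oxidation and ketogenesis the gap to shared sites was widest, with 10 of 24 genes (41.7%) against 21 of 24 (87.5%), although members were 15 of 97 NCoR peaks (15.5%). Acaa2, a mitochondrial thiolase gene, and Bdh1, a ketone body dehydrogenase gene, had 3 members each. The carnitine palmitoyltransferase gene Cpt2 had 1 at its CpG-rich promoter, with an ETS/ELK motif, and Acot1 had 1 at its promoter, at -130 bp from a TSS. Acot1 stands beside close paralogues, and only uniquely mapped reads were used there.

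In lipid droplet and triglyceride turnover, members were found at 10 of 19 genes (52.6%), as were shared sites, and members were 12 of 72 NCoR peaks (16.7%). Lpin2 and Plin4 had 2 members each. In gluconeogenesis 7 of 12 genes (58.3%) had a member, led by Foxo1 and Ppargc1a, the gene of the coactivator PGC-1alpha, with 4 each, and members were 16 of 106 NCoR peaks (15.1%). The CREB coactivator gene Crtc2 had a single NCoR peak, which was a member at its promoter (chr3:90254027-90254255). Bile acid genes had a member at 8 of 15 (53.3%), with 13 of 70 NCoR peaks (18.6%). Cyp8b1, the sterol 12-hydroxylase that makes cholic acid, had 3, of which chr9:121925341-121925569 held a RORE. Promoter members lay at Cyp27a1 and at Slc10a1, the bile acid uptake transporter, and each held a C/EBP motif. Cholesterol genes had a member at 10 of 22 (45.5%), with 3 at the squalene epoxidase gene Sqle, to which no SMRT peak was assigned, and members were 14 of 92 NCoR peaks (15.2%). The growth hormone and STAT axis had a member at 8 of 12 genes (66.7%), with 15 of 97 NCoR peaks (15.5%). Stat5a, Stat5b and Bcl6 had 3 each, and 1 of the Stat5b members lay at its promoter. Urea cycle and amino acid genes had the lowest share of these metabolic lists, 7 of 20 (35.0%), with members at 10 of 93 NCoR peaks (10.8%). Got1 had 3 and Cps1 had 2.

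**Figure D5:**
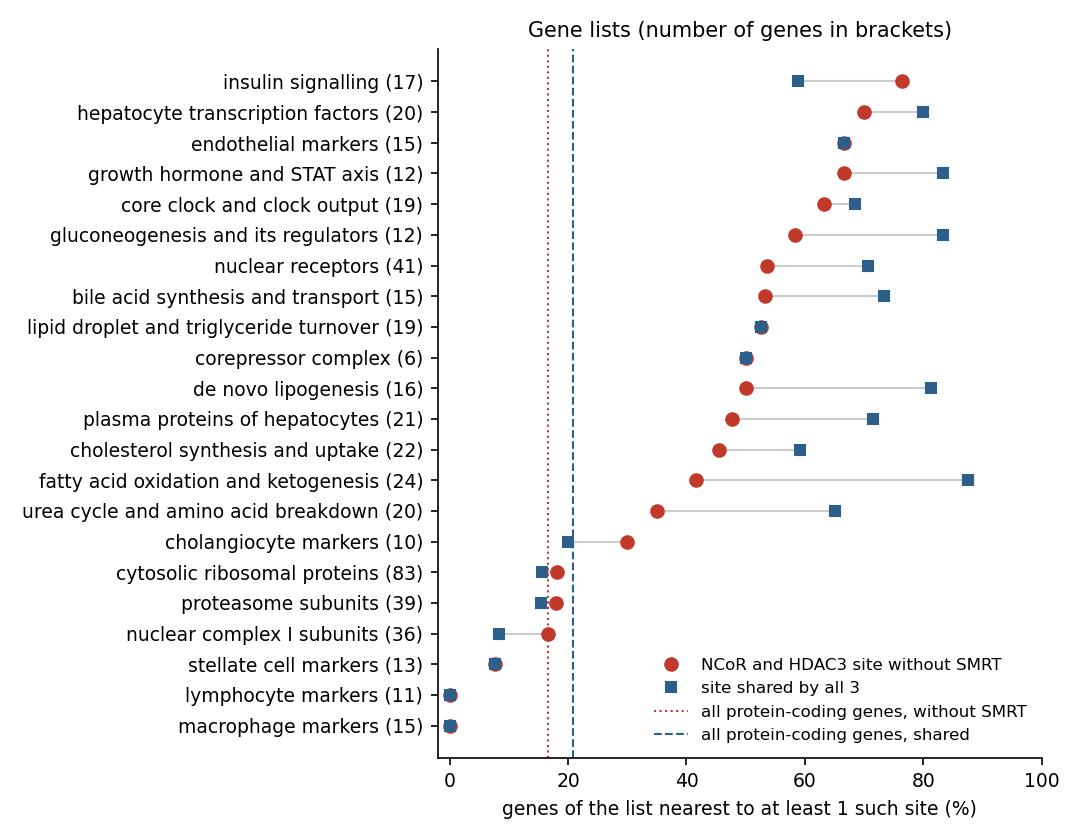
Share of the genes of each list that were nearest to at least 1 member (circles) or at least 1 shared site (squares), in percent, with the shares over all protein-coding genes as vertical lines (16.7% and 20.9%). Insulin signalling genes reached 76.5% for members and 58.8% for shared sites, whereas fatty acid oxidation and ketogenesis genes reached 41.7% and 87.5%. The plot does not take account of how many NCoR peaks a list held.

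In the housekeeping lists the share of genes with a member lay near that of all genes. The share of their NCoR peaks that were members was a little above that of all NCoR peaks, as in several other lists. Members were found at 15 of 83 cytosolic ribosomal protein genes (18.1%), 6 of 36 nuclear complex I genes (16.7%) and 7 of 39 proteasome genes (17.9%). They were 17 of 99 (17.2%), 7 of 41 (17.1%) and 9 of 45 (20.0%) of the NCoR peaks in these lists, beside 14.8% of all NCoR peaks. The metabolic and regulatory lists ran from 10.8% (urea cycle and amino acid genes) to 19.4% (clock). The counts are small and no test was made. NCoR peaks were found at 50.6%, 55.6% and 56.4% of the genes, compared with 17 of 17 insulin signalling genes. Shared sites were found at 13, 3 and 6 of these genes, respectively. No SMRT peak was assigned to any of the 6 complex I genes with a member. Promoter members were found at 4 ribosomal protein genes (Rpl41, Rpl9, Rps14 and Rps3a1) and at the complex I genes Ndufc1 and Ndufv3, but at no proteasome gene.

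The labelled tissue was checked with marker genes of hepatocytes and of other liver cells. All 21 plasma protein genes matched had an NCoR peak, and 10 of them (47.6%) had a member, including Alb, Fga and Trf with 2 each. Members were 13 of 95 NCoR peaks in this list (13.7%). The fibrinogen gene Fga had no other NCoR peak, and its promoter member (chr3:83025902-83026130), at -60 bp from the TSS, held a BCL6/STAT motif. NCoR peaks were found at 3 of 15 macrophage genes and 2 of 11 lymphocyte genes, and members at none of either list. These lists held only 4 and 3 NCoR peaks, too few to read anything from the absence of members. NCoR peaks were found at 14 of 15 endothelial marker genes, and members were 11 of their 61 NCoR peaks. Of these genes, 10 (66.7%) had a member, with 2 at Stab2 and 1 at the promoter of Stab1, both scavenger receptor genes of sinusoidal cells, and 10 of 15 had a shared site. Stellate cell markers had 1 of 13 (1 of 14 NCoR peaks), at Dcn, and cholangiocyte markers had 3 of 10 (9 of 44 NCoR peaks), with 7 members at Sox9. Whole liver was used, and the part of endothelial cells in these sites was not tested.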

How the data were processed

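The authors immunoprecipitated crosslinked liver chromatin and aligned single-end reads to mm10 with Bowtie, keeping unique alignments with at most 1 read per start position. With HOMER, they called peaks on the 3 pooled libraries of a cofactor against input and kept those for which the authors' DESeq2 run on the single libraries passed. The deposited lists hold positions (chromosome, start, end), and each list has 1 interval length (228 bp for NCoR, 212 bp for HDAC3 and SMRT). The sources used here give no read depth.

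Positions were taken as 1-based. Centers at most 200 bp apart counted as overlapping, as in the study. The GRCm38 sequence and GENCODE vM21 basic annotation were used. Classes were compared by Fisher's exact test (two-sided, scipy 1.17.1), adjusted by Benjamini-Hochberg over 8 location tests and over 21 motifs per comparison, with exact (Clopper-Pearson) 95% intervals. Code was tested on simulated data. Genes were named as the 10 with most members and the 8 with most among genes without an assigned SMRT peak. Up to 4 by count and 4 by promoter members were named in each of 22 lists. A few other list genes are named beside them. Certain genes are not reported here. The members, lists and motifs were chosen with earlier results of these data known, so no list is independent evidence. The alternatives changed the overlap, window, annotation and site sets.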

Additional observations from a re-analysis of the deposited data

How the results depend on the processing

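No paired analysis was possible because the replicates of a cofactor were merged into 1 list, which also left none to omit. The depth behind a list is unknown, and a missing peak may be a weak one. Of 111 recomputed values of the main results, 105 kept both their direction and their call (or, for counts, moved by less than 1.5 times). The member count ran from 4980 (SMRT absent within 1 kb) to 5219 (centers within 400 bp). The odds ratio for CpG-rich sites against NCoR-only sites was 0.833 outside promoters (adjusted p = 0.0832). The number of motifs that differed from shared sites was 3 instead of 6 in 100-bp windows, 3 among non-promoter sites and 3 among sites that were not CpG-rich, and the number that differed from NCoR-only sites was 4 instead of 7 among non-promoter sites. With all annotated genes as candidates, 2382 genes instead of 1489 had a member and no assigned SMRT peak. The promoter odds ratio against shared sites ran from 1.25 to 1.88, and the odds ratio for an NCoR neighbour against shared sites from 0.694 to 0.841.

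For single motifs, 377 of 419 recomputed values kept both direction and call, 18 lost and 5 gained significance, and 19 changed direction, none of them past the threshold in the new direction. Against shared sites, PU.1 became 1.003 with SMRT absent within 1 kb, 1.13 in 100-bp windows, 1.001 among non-promoter sites and 1.03 among sites that were not CpG-rich. In 100-bp windows the HNF4 half-site became 1.01 and AP-1 1.09. BCL6/STAT became 1.02 among non-promoter sites and 1.04 among sites that were not CpG-rich, where ETS/ELK became 0.629 and E-box 0.951. Against NCoR-only sites, HNF6/CUX2 became 0.965 and CRE 0.756 in 100-bp windows, and HNF1 became 0.841 and YY1 0.982 with repeat-masked bases removed. Among non-promoter sites HNF1 became 0.863, NRF1 1.59 and CRE 0.940, and among sites that were not CpG-rich NRF1 became 1.38 and CRE 0.984. The cause was not tested.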
